A study of Mus musculus with 4 samples.

Results

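The genes described here are 62 X-linked mouse genes whose table rows start between 130 and 150 Mb of the X chromosome (mm9) and that had at least 20 allele-assigned reads in each of 4 libraries. An allele-assigned read overlaps a position where the parental strains differ, which places it on the maternal or the paternal chromosome. The table lists 22686 genes, 952 of them X-linked, and 341 X-linked genes reached 20 such reads in all 4 libraries. The interval holds 165 rows, of which 90 had too few reads. A further 13 rows with enough reads were left out by name, because they hold Shroom2, Kdm5c, Hsd17b10, Smc1a, Timm8a1, Rpl36a, Tmem164, Pak3, Gprasp1, Gprasp2 or an Armcx gene.

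Gene expression was measured by RNA-seq in epiblast stem cells (EpiSCs), which are pluripotent cells of the post-implantation epiblast, taken here from female embryos at embryonic day 6.5. The 4 libraries were Smchd1 MD1/MD1 with XistdeltaA/+, Smchd1 +/+ with XistdeltaA/+, Smchd1 MD1/MD1 with Xist1lox/+ and Smchd1 +/+ with Xist1lox/+. Each combined genotype has 1 library, and no library without an Xist mutation is in the set. The strain is C57BL6/J crossed with a JF1 x C57BL6/J F1 animal. A pair below means the MD1/MD1 and the +/+ library that carry the same Xist mutation. Nothing in the labels says how many embryos or cell lines stand behind a library, so every p-value on reads below compares those libraries, not the conditions.

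In female mammals one X chromosome of each cell is silenced under the direction of Xist, a long non-coding RNA that coats the chromosome it is made from. SmcHD1 is a non-canonical SMC protein that is recruited to the inactive X and is needed to keep many of its genes silent, while a minority of genes escape silencing altogether. In these libraries Xist reads were 99.9% and 99.8% paternal in the MD1/MD1 libraries of the XistdeltaA and Xist1lox pairs, against 99.5% and 99.9% in the +/+ libraries. The paternal share, which is paternal reads divided by allele-assigned reads, therefore measures the part of expression from the chromosome that makes Xist. As a ratio, it can also rise where maternal expression falls.

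Smchd1 itself stood at 6.68 and 5.98 FPKM in the MD1/MD1 libraries of the XistdeltaA and Xist1lox pairs, against 27.0 and 20.9 FPKM in the +/+ libraries. Between 7301034 and 8008500 allele-assigned reads were counted per library, and 26421 to 31084 of them lay on the 62 genes, with 24 to 5173 reads per gene and library. Autosomal windows were taken as maternal-type in each library by that library's own low paternal share. They numbered 27 and 46 in the MD1/MD1 libraries of the XistdeltaA and Xist1lox pairs, against 45 and 67 in the +/+ libraries. There 0.754% and 0.292% of reads were called paternal in the MD1/MD1 libraries, against 0.171% and 0.361% in the +/+ libraries. The choice of windows itself keeps these values low, and the windows differ between libraries. Of 9 primed epiblast markers, 8 reached 1 FPKM in each library. Of 6 naive pluripotency markers 2 to 3 reached it, with Klf2 at 30.8 to 50.6 FPKM and Klf4 at 24.2 to 34.8 FPKM. Of 5 trophoblast markers 1 to 3 reached it. Hand1 among them was at 5.19 and 0.189 FPKM in the MD1/MD1 libraries of the XistdeltaA and Xist1lox pairs, against 0.372 and 0.277 FPKM in the +/+ libraries. The summed level of 7 macrophage markers was 917 and 294 FPKM in the MD1/MD1 libraries of the XistdeltaA and Xist1lox pairs, against 22.3 and 324 FPKM in the +/+ libraries. C1qa, C1qb, Tyrobp and Emr1 were listed at 0 in the +/+ XistdeltaA library. The summed level of 9 fibroblast markers was 125 and 60.1 FPKM in the MD1/MD1 libraries, against 44.0 and 58.4 FPKM in the +/+ libraries. Reads of the macrophage gene Lyz2 were at most 0.0515% paternal in any library. The part of these other cells in the shares below was not tested.

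The paternal X was more active over this interval in both MD1/MD1 libraries, but at a low level. Pooled over the 62 genes, the paternal share was 4.5% of reads (4.27 to 4.74) in the MD1/MD1 library of the XistdeltaA pair, against 0.714% (0.624 to 0.814) in its +/+ library. In the Xist1lox pair it was 4.39% (4.15 to 4.64) in the MD1/MD1 library, against 1.32% (1.20 to 1.46) in the +/+ library. Ranges in parentheses, here and below, are 95% intervals by the exact Clopper-Pearson method, which cover counting error alone. In bulk libraries, fewer cells with an active paternal gene and less paternal RNA per cell cannot be told apart. The rise was 3.79 percentage points in the XistdeltaA pair and 3.07 points in the Xist1lox pair. Over the 4 libraries as units, the exact two-sided permutation test gave p = 0.333, the smallest that 2 libraries against 2 allow.

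Most of these genes moved little. The median gene was 2.68% and 2.21% paternal in the MD1/MD1 libraries of the XistdeltaA and Xist1lox pairs, against 0% and 0.420% in the +/+ libraries. No paternal read was found for 7 and 18 of the 62 genes in the MD1/MD1 libraries, against 32 and 27 in the +/+ libraries. The remaining X-linked genes compared, without Xist and its neighbours Ftx and Jpx, numbered 276. They include the 13 rows of the interval left out by name, Kdm5c among them. Their pooled share was 10.3% and 10.5% in the MD1/MD1 libraries, against 3.03% and 3.93% in the +/+ libraries, a rise of 7.23 and 6.54 points. Their median gene stood at 3.98% and 4.22% in the MD1/MD1 libraries, against 0% and 0.176% in the +/+ libraries. The gap between the 62 genes and these 276 was not tested.

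**Figure D1:**
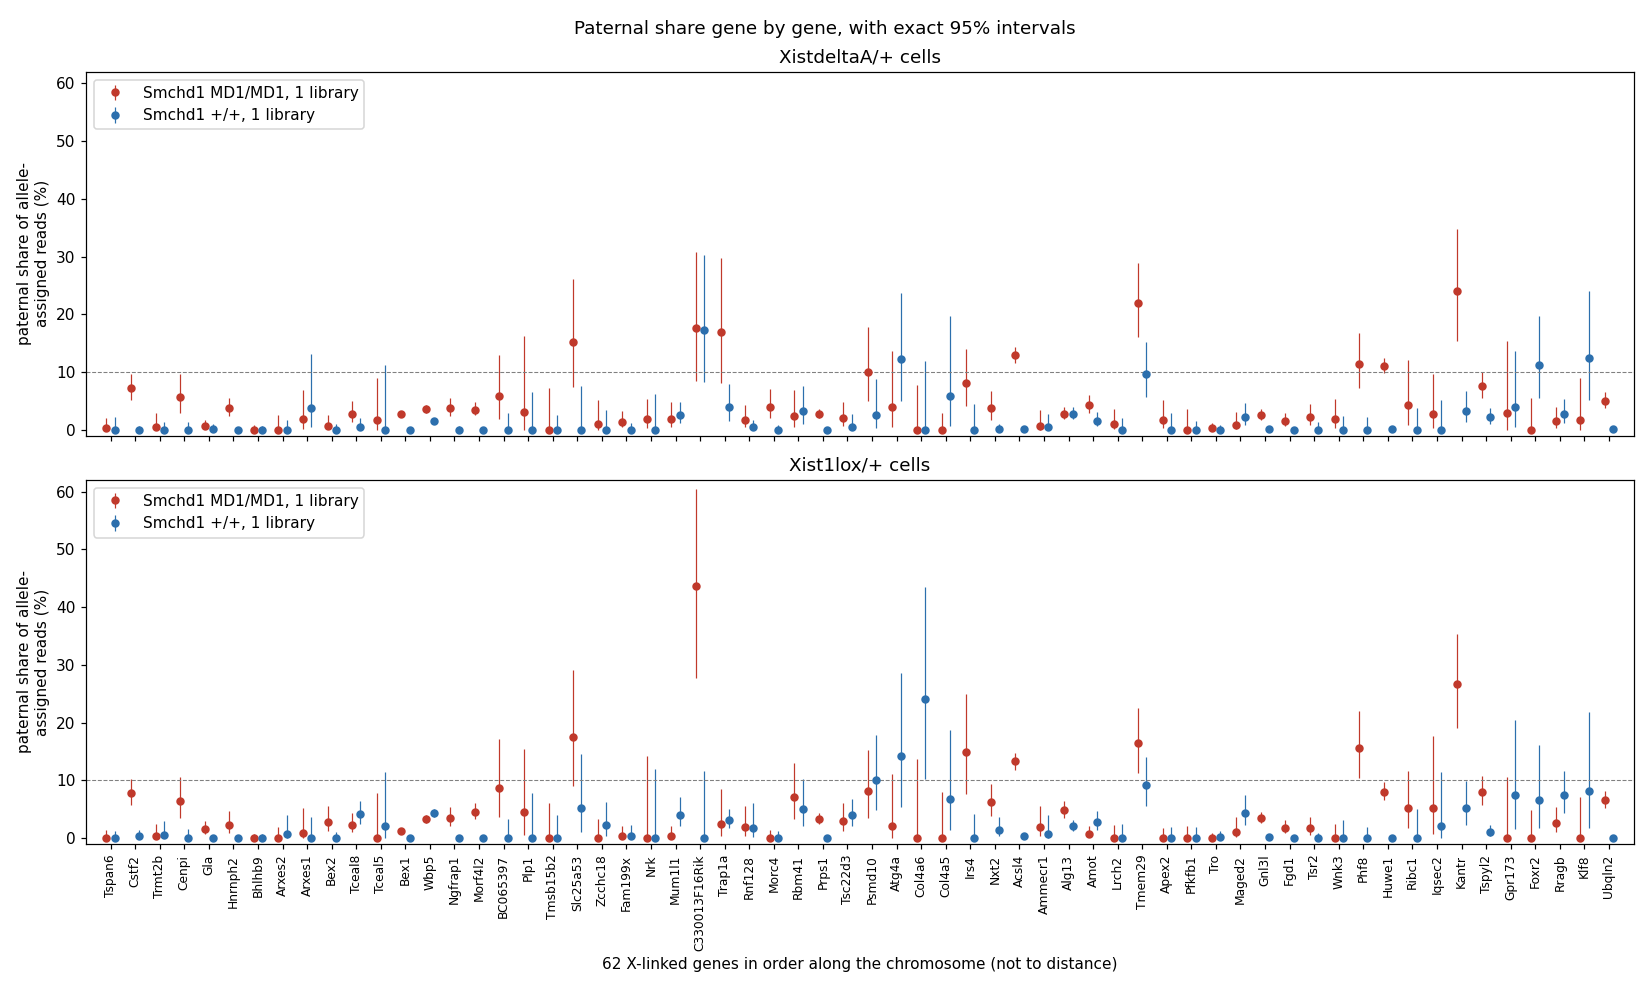
Paternal share (percent of allele-assigned reads, vertical axis) of each of the 62 genes in the order of their position, 1 panel per Xist mutation; red points are the MD1/MD1 library and blue points the +/+ library, with 95% Clopper-Pearson bars and a dashed line at 10%. In the +/+ libraries 32 and 27 genes lie at 0%, and Acsl4, Phf8, Kantr, Slc25a53, Tmem29 and C330013F16Rik stand above the line in both MD1/MD1 libraries.

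A gene was called where Fisher's exact test (two-sided) on its paternal and maternal reads passed an adjusted p of 0.05, adjusted by the Benjamini-Hochberg method across all 341 X-linked genes. The share was higher in MD1/MD1 for 26 of the 62 genes in the XistdeltaA pair, where 46.0% of the X-linked genes were called higher. In the Xist1lox pair 23 genes were higher, with 41.1% of X-linked genes called. In both pairs 19 genes were higher, 30.6% of the 62, against 35.8% of the X-linked genes. A lower share was called for 1 gene in the XistdeltaA pair and 4 in the Xist1lox pair, where 3.52% and 4.69% of X-linked genes were called lower. None of the 62 genes was lower in both pairs, against 2.05% of the X-linked genes. For 28 of the 62 genes (45.2%) neither pair passed in either direction, against 43.1% of the X-linked genes.

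Read support moved with the calls. The 19 genes called higher in both pairs had a median of 608 allele-assigned reads per library, against 169.25 for the other 43. By shares alone, both MD1/MD1 libraries were above both +/+ libraries for 27 genes (43.5%), against 56.3% of the X-linked genes. They were below both +/+ libraries for 8 genes (12.9%), against 7.62%.

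**Figure D2:**
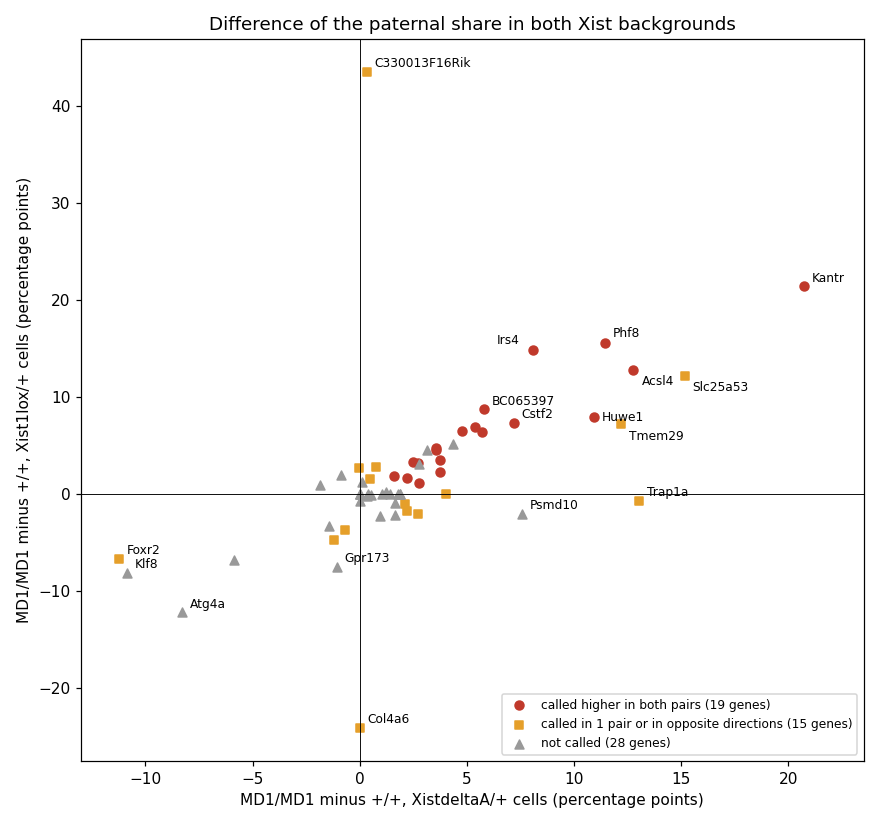
Difference in paternal share, MD1/MD1 minus +/+ (percentage points), in the XistdeltaA pair (horizontal) and the Xist1lox pair (vertical), 1 point per gene. Colour and shape show the calls of Fisher's exact test: 19 genes higher in both pairs (red circles), 15 called in 1 pair or in opposite directions (orange squares) and 28 not called (grey triangles). Kantr, Acsl4, Phf8 and Slc25a53 lie above 10 points in both pairs, while C330013F16Rik is 43.6 points higher in the Xist1lox pair alone.

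By windows of 5 Mb, each MD1/MD1 library had a pooled share above that of its +/+ library, and the gap was smallest from 140 to 145 Mb, where the intervals overlap. From 130 to 135 Mb, 22 genes pooled to 3.01% and 2.64% in the MD1/MD1 libraries of the XistdeltaA and Xist1lox pairs, against 0.365% and 1.30% in the +/+ libraries. From 135 to 140 Mb, 17 genes gave 6.77% and 7.59% in the MD1/MD1 libraries, against 0.787% and 1.47% in the +/+ libraries. The window from 140 to 145 Mb holds Alg13, Amot and Lrch2 alone, with 3.18% and 3.15% in the MD1/MD1 libraries, against 2.21% and 2.11% in the +/+ libraries. From 145 to 150 Mb, 20 genes pooled to 5.89% and 5.19% in the MD1/MD1 libraries, against 0.938% and 1.08% in the +/+ libraries. Single genes carry much of these sums. Acsl4 gave 276 of the 403 and 285 of the 411 paternal reads of its window in the MD1/MD1 libraries. Wbp5 gave 158 of the 189 paternal reads of the first window in the +/+ Xist1lox library. Genes higher in both pairs numbered 7 of 22, 4 of 17, 0 of 3 and 8 of 20 along these windows.

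**Figure D3:**
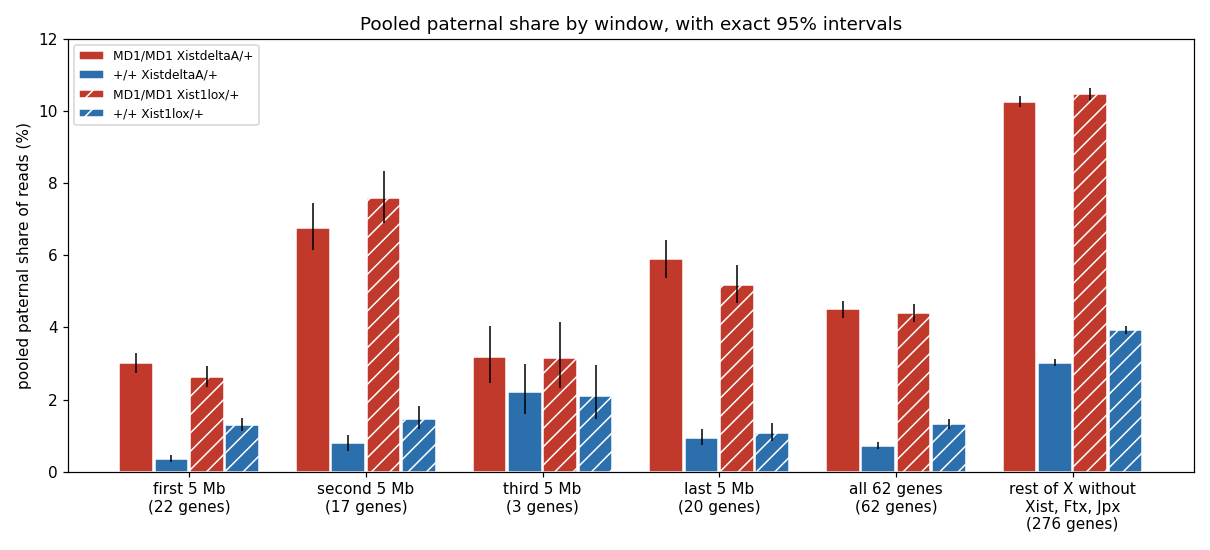
Pooled paternal share (percent of allele-assigned reads, bars from 0, with 95% Clopper-Pearson intervals) in the 4 windows of 5 Mb, in all 62 genes and in the 276 other X-linked genes without Xist, Ftx and Jpx. MD1/MD1 bars (red) stand left of +/+ bars (blue), and hatched bars are Xist1lox. Of the windows, that from 135 to 140 Mb is highest in both MD1/MD1 libraries, at 6.77% and 7.59%.

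At 10% or more a gene was counted as expressed from the paternal X. In the MD1/MD1 libraries of the XistdeltaA and Xist1lox pairs, 9 and 7 of the 62 genes reached it (14.5% and 11.3%), against 4 and 3 genes in the +/+ libraries (6.45% and 4.84%). Of the X-linked genes compared, 23.8% and 25.8% reached it in the MD1/MD1 libraries, against 4.40% and 7.04% in the +/+ libraries. Slc25a53, Acsl4, Tmem29, Phf8 and Kantr, 5 of the 62, reached 10% in both MD1/MD1 libraries and in neither +/+ library, against 14.4% of the X-linked genes. Across all 4 libraries together, 3 of the 62 rows held no paternal read, against 14 of the 341 X-linked genes. They are those of Bhlhb9, Pfkfb1 and the joint row of Tmsb15b2 and Tmsb15l.

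The promoters of Acsl4, Phf8, Huwe1 and Kantr, among the largest rises, are shown beside those of Bhlhb9 and Pfkfb1, which had no paternal read. The sequences are the 160 bases before the first listed transcript start, 5′ to 3′ on the strand of the gene, from RefSeq (GRCm38.p6). Capitals mark matches to GGGCGG (the GC box bound by SP factors), ATGGCG (the core of the YY1 site), GCATGCGC (the core of the NRF1 site), CCGGAAGT (an ETS site) or TATAAA (the TATA box), on either strand and with overlaps allowed.
Acsl4: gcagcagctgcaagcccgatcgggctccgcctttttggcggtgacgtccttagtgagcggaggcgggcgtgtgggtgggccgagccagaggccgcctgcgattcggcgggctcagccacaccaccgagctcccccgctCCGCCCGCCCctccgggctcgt
Phf8: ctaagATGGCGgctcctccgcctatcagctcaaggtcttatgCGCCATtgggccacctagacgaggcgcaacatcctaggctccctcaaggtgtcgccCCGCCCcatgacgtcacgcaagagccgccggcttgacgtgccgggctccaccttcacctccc
Huwe1: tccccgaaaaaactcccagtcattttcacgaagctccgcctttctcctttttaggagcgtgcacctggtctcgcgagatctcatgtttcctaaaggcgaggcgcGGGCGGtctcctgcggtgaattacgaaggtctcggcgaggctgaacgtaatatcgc
Kantr: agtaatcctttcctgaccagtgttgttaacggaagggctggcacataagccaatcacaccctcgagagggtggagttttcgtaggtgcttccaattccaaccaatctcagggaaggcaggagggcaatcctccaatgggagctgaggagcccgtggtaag
Bhlhb9: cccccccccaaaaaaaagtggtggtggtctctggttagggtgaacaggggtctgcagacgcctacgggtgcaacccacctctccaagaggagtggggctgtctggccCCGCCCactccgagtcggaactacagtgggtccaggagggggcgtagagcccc
Pfkfb1: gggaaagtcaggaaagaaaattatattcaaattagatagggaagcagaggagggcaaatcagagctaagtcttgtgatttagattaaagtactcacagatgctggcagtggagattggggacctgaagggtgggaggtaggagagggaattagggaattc

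The Acsl4, Phf8 and Huwe1 promoters have a ratio of observed to expected CpG of 0.857, 0.971 and 1.22 over the 300 bases around the start, and those of Kantr, Bhlhb9 and Pfkfb1 of 0.425, 0.404 and 0.118. Promoters were found for 57 of the 62 rows. Their median CpG ratio was 0.633, against 0.389 over 27025 mouse genes and 0.362 over 1046 X-linked genes. A ratio of 0.6 or more was found in 31 of the 57, or 54.4%, against 36.5% of all genes. Among 17 promoters of genes higher in both pairs 11 reached it, as did 20 of the other 40. GGGCGG was found in 39 of the 57 (68.4%, against 35.9% of all genes) and ATGGCG in 10 (17.5%, against 9.24%). GCATGCGC was found in 2 (3.51%, against 2.80%), TATAAA in 6 (10.5%, against 14.2%) and CCGGAAGT in none (against 4% of all genes). The 57 promoters belong to genes that passed the read minimum, which the 27025 and 1046 genes did not have to meet. The part of that choice in the differences from them was not tested. A match is a description of the letters and not a measured binding site.

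Acsl4 (X:138752536-138825078, minus strand) encodes a long-chain acyl-CoA synthetase that prefers arachidonic acid and shapes membrane lipids. It had the most paternal reads of the 62 genes in both MD1/MD1 libraries. In the XistdeltaA pair 276 of 2133 reads were paternal in the MD1/MD1 library, or 12.9% (11.5 to 14.4), against 4 of 2122 in the +/+ library, or 0.189% (0.0514 to 0.482). In the Xist1lox pair the count was 285 of 2147 in the MD1/MD1 library, or 13.3% (11.9 to 14.8), against 7 of 1634 in the +/+ library, or 0.428% (0.172 to 0.881). Both MD1/MD1 libraries were far above both +/+ libraries, and the adjusted p of Fisher's exact test was 1.35e-78 and 1.37e-61.

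The other metabolic genes were less uniform. Of 4 on the list, 2 were higher in both pairs (50%, against 35.8% of the X-linked genes). Prps1, which makes phosphoribosyl pyrophosphate for nucleotide synthesis, was 2.79% and 3.26% paternal in the MD1/MD1 libraries of the XistdeltaA and Xist1lox pairs, against 0.0606% and 0% in the +/+ libraries. Gla, the lysosomal alpha-galactosidase, was 0.681% and 1.52% in the MD1/MD1 libraries, against 0.189% and 0% in the +/+ libraries, and passed in the Xist1lox pair (adjusted p = 0.00686, against 0.545 in the XistdeltaA pair). Pfkfb1, which makes and breaks down fructose 2,6-bisphosphate, had 0 paternal reads of 99 and 168 in the MD1/MD1 libraries, against 0 of 245 and 195 in the +/+ libraries. A count of 0 there still allows up to 3.03% and 1.79% in the MD1/MD1 libraries.

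Among 9 genes of transcription, chromatin and DNA repair, 4 were higher in both pairs (44.4%, against 35.8% of the X-linked genes). Phf8 (X:147955215-148068400, plus strand) encodes a demethylase of histone H3 lysine 9. It had 22 of 192 and 26 of 167 paternal reads in the MD1/MD1 libraries of the XistdeltaA and Xist1lox pairs, or 11.5% (7.32 to 16.8) and 15.6% (10.4 to 22.0). Its +/+ libraries had 0 of 159 and 0 of 195, which allows up to 1.89% and 1.54%. The adjusted p was 4.94e-06 and 3.25e-09 by Fisher's exact test.

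Kantr (X:148729367-148762036, minus strand), a long non-coding transcript beside Kdm5c, had the highest share of the 62 genes in the MD1/MD1 XistdeltaA library. It was 24.1% (15.4 to 34.7) and 26.6% (19.1 to 35.3) in the MD1/MD1 libraries of the XistdeltaA and Xist1lox pairs, against 3.35% (1.36 to 6.78) and 5.16% (2.25 to 9.92) in the +/+ libraries. The adjusted p was 1.17e-06 and 3.04e-06 by Fisher's exact test. Its neighbour Kdm5c, a known escape gene that was left out by name, stood at 33.4% and 31.0% in the MD1/MD1 libraries, against 33.4% and 25.4% in the +/+ libraries. Tspyl2, a member of the nucleosome assembly protein family and the next gene, lay just under 10%. It was 7.54% and 7.98% in the MD1/MD1 libraries, against 2.18% and 1.08% in the +/+ libraries.

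Morf4l2, an MRG-family chromatin protein, was 3.55% and 4.56% in the MD1/MD1 libraries of the XistdeltaA and Xist1lox pairs, against 0% in both +/+ libraries, with 1008 to 1183 reads per library. Morc4 passed in the XistdeltaA pair alone, at 4.03% in the MD1/MD1 library against 0% in the +/+ library. In the Xist1lox pair it had 0 paternal reads of 248 in the MD1/MD1 library and 0 of 278 in the +/+ library. Tsc22d3, Apex2, Tro and Maged2 passed in neither pair.

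Of 5 genes listed under RNA processing, export and ribosome assembly, 4 were higher in both pairs, where 35.8% of X-linked genes were. Cstf2, an RNA 3′ end factor described below, is not on that list, and no list was tested as a set. Hnrnph2, a splicing regulator, was 3.73% and 2.33% paternal in the MD1/MD1 libraries of the XistdeltaA and Xist1lox pairs, against 0% in both +/+ libraries. Gnl3l, a nucleolar GTPase, was 2.62% and 3.47% in the MD1/MD1 libraries, against 0.120% and 0.163% in the +/+ libraries. Nxt2, of the NTF2-like RNA export factors, was 3.75% and 6.19% in the MD1/MD1 libraries, against 0.192% and 1.41% in the +/+ libraries. Tsr2, whose yeast counterpart acts in ribosome maturation, was 2.19% and 1.70% in the MD1/MD1 libraries, against 0% in both +/+ libraries. It overlaps Fgd1 on the other strand, and the sources used here do not give the strand setting of the counting. Rbm41 passed in neither pair, at 2.44% and 7.09% in the MD1/MD1 libraries and 3.31% and 5.07% in the +/+ libraries.

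Of 5 genes of protein degradation and sorting, 1 was higher in both pairs (20%, against 35.8% of the X-linked genes). This was Huwe1 (X:148237825-148369961, plus strand). It encodes a large HECT-type ubiquitin ligase. In the XistdeltaA pair 232 of 2090 reads were paternal in the MD1/MD1 library, or 11.1% (9.79 to 12.5), against 2 of 1256 in the +/+ library, or 0.159% (0.0193 to 0.574). In the Xist1lox pair it had 99 of 1237 in the MD1/MD1 library, or 8.0% (6.55 to 9.66), against 0 of 935 in the +/+ library. The adjusted p was 3.34e-45 and 2.95e-24 by Fisher's exact test. Psmd10, a chaperone of the proteasome cap, was 10.1% (4.95 to 17.8) and 8.08% (3.55 to 15.3) in the MD1/MD1 libraries, against 2.53% (0.308 to 8.85) and 10.1% (4.95 to 17.8) in the +/+ libraries. It passed in neither pair, and its libraries overlap.

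Alg13, which acts in the first steps of N-glycosylation, was 2.82% and 4.83% in the MD1/MD1 libraries of the XistdeltaA and Xist1lox pairs, against 2.83% and 2.10% in the +/+ libraries. It passed in the Xist1lox pair (adjusted p = 0.00414 by Fisher's exact test). Rnf128, a membrane-bound ubiquitin ligase, passed in neither pair. Atg4a, a protease of autophagy, went the other way without passing, at 4% and 2.08% in the MD1/MD1 libraries against 12.3% and 14.3% in the +/+ libraries (adjusted p = 0.278 and 0.0930).

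Signalling and cytoskeletal genes numbered 9, of which 2 were higher in both pairs (22.2%, against 35.8% of the X-linked genes). Irs4, an adaptor of insulin signalling, had 11 of 136 and 11 of 74 paternal reads in the MD1/MD1 libraries of the XistdeltaA and Xist1lox pairs, or 8.09% (4.11 to 14.0) and 14.9% (7.66 to 25). Its +/+ libraries had 0 of 79 and 0 of 86, which allows up to 3.80% and 3.49%. The adjusted p was 0.0175 and 0.000479 by Fisher's exact test. Fgd1, an exchange factor of Cdc42, was 1.58% and 1.84% in the MD1/MD1 libraries, against 0% in both +/+ libraries. Nrk, Lrch2, Wnk3, Ammecr1, Fam199x and Iqsec2 passed in neither pair.

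The Tceal and Bex genes are small acidic proteins encoded in a tight X-linked cluster, and they include the most expressed of the 62 genes. Of 6 measured, 2 were higher in both pairs (33.3%, against 35.8% of the X-linked genes). Bex1, an adaptor of neurotrophin receptor signalling, had 142 of 5173 and 38 of 3267 paternal reads in the MD1/MD1 libraries of the XistdeltaA and Xist1lox pairs, or 2.75% (2.32 to 3.23) and 1.16% (0.824 to 1.59). Its +/+ libraries had 0 of 4853 and 0 of 4146, which allows up to 0.0618% and 0.0724%. Ngfrap1, named Bex3 in later annotation, was 3.74% and 3.57% in the MD1/MD1 libraries, against 0% in both +/+ libraries. Bex2 was 0.749% and 2.85% in the MD1/MD1 libraries, against 0% in both +/+ libraries, and passed in the Xist1lox pair. Bex1 and Bex2 are near-identical copies, so reads split between them are uncertain.

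Wbp5, named Tceal9 in later annotation, had paternal reads in every library. It was 3.60% (2.98 to 4.31) and 3.30% (2.70 to 3.99) in the MD1/MD1 libraries of the XistdeltaA and Xist1lox pairs, against 1.49% (1.10 to 1.98) and 4.31% (3.68 to 5.02) in the +/+ libraries. The share was higher in MD1/MD1 in the XistdeltaA pair (adjusted p = 3.05e-07 by Fisher's exact test). With Xist1lox it was lower in MD1/MD1 and missed the threshold (adjusted p = 0.0744). Tceal8 showed the same order, at 2.79% and 2.36% in the MD1/MD1 libraries, against 0.570% and 4.12% in the +/+ libraries, and passed in the XistdeltaA pair (adjusted p = 0.0486). That call was lost with adjustment over all genes with enough reads (adjusted p = 0.0624) and with a minimum of 10 reads (adjusted p = 0.0533). Tceal5, with 31 to 60 reads per library, passed in neither pair.

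Of the 20 genes in no functional list, 4 were higher in both pairs (20%, against 35.8% of the X-linked genes). Cstf2, a subunit of the cleavage stimulation factor for messenger RNA 3′ ends, was 7.21% and 7.76% in the MD1/MD1 libraries of the XistdeltaA and Xist1lox pairs, against 0% and 0.415% in the +/+ libraries. Cenpi, a kinetochore protein, was 5.69% and 6.42% in the MD1/MD1 libraries, against 0% in both +/+ libraries. Ubqln2, a shuttle of ubiquitinated proteins, was 4.99% and 6.59% in the MD1/MD1 libraries, against 0.235% and 0.0915% in the +/+ libraries. BC065397 was 5.81% and 8.75% in the MD1/MD1 libraries, against 0% in both +/+ libraries, and overlaps Morf4l2 on the other strand.

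Tmem29 had paternal reads in every library. It was 22.0% (16.0 to 28.9) and 16.4% (11.3 to 22.6) in the MD1/MD1 libraries of the XistdeltaA and Xist1lox pairs, against 9.77% (5.80 to 15.2) and 9.18% (5.53 to 14.1) in the +/+ libraries. It passed in the XistdeltaA pair (adjusted p = 0.00498 by Fisher's exact test, with 0.0872 for Xist1lox). Slc25a53, of the mitochondrial carrier family, was 15.2% (7.51 to 26.1) and 17.5% (9.05 to 29.1) in the MD1/MD1 libraries, against 0% and 5.26% (1.10 to 14.6) in the +/+ libraries. It passed in the XistdeltaA pair too (adjusted p = 0.0116, and 0.0930 in the Xist1lox pair), with 47 to 66 reads per library, and it overlaps Zcchc18 on the other strand.

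Trap1a and C330013F16Rik overlap on opposite strands and the counting strand is unknown, so it is uncertain whether some reads were placed in the wrong row. The rows did not hold the same reads, with 477 for Trap1a and 30 for C330013F16Rik in the +/+ Xist1lox library. Trap1a, the gene of the tumour rejection antigen P1A, had 9 of 53 and 2 of 82 paternal reads in the MD1/MD1 libraries of the XistdeltaA and Xist1lox pairs, or 17% (8.07 to 29.8) and 2.44% (0.297 to 8.53). Its +/+ libraries had 7 of 177 and 15 of 477, or 3.95% (1.60 to 7.98) and 3.14% (1.77 to 5.13). It passed in the XistdeltaA pair (adjusted p = 0.00726 by Fisher's exact test). C330013F16Rik had 9 of 51 and 17 of 39 in the MD1/MD1 libraries, or 17.6% (8.40 to 30.9) and 43.6% (27.8 to 60.4). Its +/+ libraries had 9 of 52 and 0 of 30, or 17.3% (8.23 to 30.3) and 0%, which allows up to 10%. It passed in the Xist1lox pair (adjusted p = 3.78e-05).

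The share was lower in the MD1/MD1 library for 11 of the 62 genes in the XistdeltaA pair and for 21 in the Xist1lox pair, calls aside. The 8 genes whose MD1/MD1 libraries were both below both +/+ libraries are Mum1l1, Atg4a, Col4a5, Maged2, Gpr173, Foxr2, Rragb and Klf8, with a median of 66.625 reads per library. Foxr2, a forkhead transcription factor, had 0 paternal reads of 65 and 75 in the MD1/MD1 libraries of the XistdeltaA and Xist1lox pairs, against 10 of 89 and 4 of 60 in the +/+ libraries, or 11.2% and 6.67%. It was lower in the XistdeltaA pair (adjusted p = 0.0123 by Fisher's exact test, with 0.0757 for Xist1lox).

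Rragb, the next gene, encodes a Rag GTPase of amino acid sensing and was lower in the Xist1lox pair (adjusted p = 0.0440 by Fisher's exact test). This call was lost with adjustment over all genes with enough reads (adjusted p = 0.0527). It was 1.58% and 2.68% in the MD1/MD1 libraries of the XistdeltaA and Xist1lox pairs, against 2.76% and 7.46% in the +/+ libraries. Klf8, a Krüppel-like repressor beside it, was 1.67% and 0% in the MD1/MD1 libraries, against 12.5% and 8.11% in the +/+ libraries, and passed in neither pair (adjusted p = 0.0565 and 0.137). Mum1l1 was 1.94% and 0.383% in the MD1/MD1 libraries, against 2.63% and 4.04% in the +/+ libraries, and was lower in the Xist1lox pair (adjusted p = 0.0153).

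The 4 extracellular and membrane genes held no higher call in either pair, where 175 of the 341 X-linked genes were called higher in at least 1 pair. Col4a6 and Col4a5 encode basement membrane collagen chains and lie head to head beside Atg4a. Col4a6 had 0 paternal reads of 45 and 25 in the MD1/MD1 libraries of the XistdeltaA and Xist1lox pairs, against 0 of 29 and 7 of 29 in the +/+ libraries. Its 24.1% (10.3 to 43.5) in the +/+ Xist1lox library was the only non-zero value, and the pair passed (adjusted p = 0.0279 by Fisher's exact test). Col4a5 had 0 of 122 and 0 of 44 in the MD1/MD1 libraries, against 2 of 34 and 3 of 44 in the +/+ libraries, and passed in neither pair. Its level was 1.55 and 0.471 FPKM in the MD1/MD1 libraries, against 0.474 and 0.569 FPKM in the +/+ libraries. The kinase gene Nrk was likewise highest in the MD1/MD1 XistdeltaA library, at 1.72 and 0.242 FPKM in the MD1/MD1 libraries, against 0.619 and 0.258 FPKM in the +/+ libraries. That library also had the highest summed fibroblast markers, and their part in these values was not tested.

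The difference between both Xist backgrounds was tested with Zelen's exact test of equal odds ratios, which passed for 3 of the 62 genes, against 4.11% of the X-linked genes. These were Wbp5 and C330013F16Rik (above) and Amot. A normal test of the log odds ratios kept the call of Wbp5 (adjusted p = 9.6e-06) and not those of C330013F16Rik (adjusted p = 0.242) and Amot (adjusted p = 0.0618). Amot, a scaffold of the Hippo pathway, was 4.34% (2.97 to 6.11) and 0.704% (0.145 to 2.04) in the MD1/MD1 libraries of the XistdeltaA and Xist1lox pairs, against 1.62% (0.741 to 3.05) and 2.80% (1.5 to 4.73) in the +/+ libraries. It was higher in the XistdeltaA pair (adjusted p = 0.0130 by Fisher's exact test) and lower in the Xist1lox pair (adjusted p = 0.0482). The call in the Xist1lox pair was lost when p-values were adjusted over all genes with enough reads (adjusted p = 0.0586). Zelen's test cannot pass where both +/+ libraries held no paternal read, because the read totals then fix its outcome. That was so for 22 of the 62 genes, Bex1 among them. The same holds where both MD1/MD1 libraries held none, as for Foxr2. The test also has little power for genes with few paternal reads, so the other 59 rows are not shown to respond alike.

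Total expression of the interval was close to that of the whole table. With limma on log2(FPKM + 1), 56 of the 62 genes reached a mean of 1 FPKM and none passed an adjusted p of 0.05, where 0.0349% of 11471 genes did (0.0174% higher and 0.0174% lower). At an unadjusted p under 0.05, 2 of the 56 passed, Trap1a and Tmsb15b2 with Tmsb15l, both lower in MD1/MD1, against 3.26% of all genes. By edgeR on the allele-assigned reads 0 of the 62 passed, where 5 of 11617 genes did, and 3 of the 62 passed unadjusted (4.84%, against 2.62% of all genes). The median log2 ratio of MD1/MD1 over +/+ on the log2(FPKM + 1) scale was -0.12 in the XistdeltaA pair and 0.06 in the Xist1lox pair, against -0.05 and 0.00 over all genes.

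Trap1a was the only gene at least 2-fold lower in both pairs, which 0.113% of all genes were, and no gene was 2-fold higher in both, against 0.131% of all genes. It stood at 9.47 and 17.5 FPKM in the MD1/MD1 libraries of the XistdeltaA and Xist1lox pairs, against 36.7 and 70.2 FPKM in the +/+ libraries. Both MD1/MD1 libraries were below both +/+ libraries. By limma the log2 ratio was -1.90 with an SE of 0.16 (adjusted p = 0.111). The alternatives with all 4 libraries, by limma or edgeR, gave an adjusted p between 0.0817 and 0.809. With 1 library left out and the Smchd1 genotype as the only term, the log2 ratio was between -2.36 and -1.44. Splitting FPKM by the allele shares put 1.61 and 0.426 FPKM on the paternal allele in the MD1/MD1 libraries, against 1.45 and 2.21 FPKM in the +/+ libraries. The maternal part was 7.86 and 17 FPKM in the MD1/MD1 libraries, against 35.2 and 68.0 FPKM in the +/+ libraries.

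The joint row of Tmsb15b2 and Tmsb15l, thymosin beta genes that bind actin, was at 5.65 and 6.48 FPKM in the MD1/MD1 libraries of the XistdeltaA and Xist1lox pairs, against 13.6 and 9.08 FPKM in the +/+ libraries. These genes have near-identical copies, so the value is uncertain. Maged2 was at 27.5 and 25.7 FPKM in the MD1/MD1 libraries, against 38.3 and 32.0 FPKM in the +/+ libraries, and missed the threshold (adjusted p = 0.937 by limma). On the high side, Huwe1 was at 44.3 and 35.4 FPKM in the MD1/MD1 libraries, against 33.0 and 29.8 FPKM in the +/+ libraries. Acsl4 was at 30.1 and 31.6 FPKM in the MD1/MD1 libraries, against 27.0 and 23.9 FPKM in the +/+ libraries. Cstf2 was at 23.4 and 25.8 FPKM in the MD1/MD1 libraries, against 21.3 and 22.3 FPKM in the +/+ libraries. These 3 had the highest ratios counted by the smaller of both pairs, and each had an adjusted p of 0.937 by limma.

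The most expressed genes did not pass limma's threshold either. Bex1 was at 343 and 363 FPKM in the MD1/MD1 libraries of the XistdeltaA and Xist1lox pairs, against 359.7 and 435 FPKM in the +/+ libraries. Ngfrap1 was at 325 and 362 FPKM in the MD1/MD1 libraries, against 405 and 425 FPKM in the +/+ libraries. Morf4l2 was at 185 and 213 FPKM in the MD1/MD1 libraries, against 199 and 213 FPKM in the +/+ libraries. Wbp5 was at 180.3 and 199.98 FPKM in the MD1/MD1 libraries, against 215 and 208 FPKM in the +/+ libraries.

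Summed over the 62 genes, the paternal part of FPKM was 66.2 and 67.1 in the MD1/MD1 libraries of the XistdeltaA and Xist1lox pairs, against 11.4 and 22.2 in the +/+ libraries, a ratio of 5.81 and 3.02. The maternal part was 0.848 and 0.900 times that of +/+. Such sums weigh the most expressed genes most, and the median log2 ratio of total expression over 56 genes was -0.12 and 0.06. Over the 276 other X-linked genes, some of them in the interval, the paternal ratio was 4.13 and 3.54 and the maternal ratio 0.976 and 1.01. The paternal part was small beside a total of 1765 and 1944 FPKM in the MD1/MD1 libraries, against 2014 and 2108 FPKM in the +/+ libraries.

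**Figure D4:**
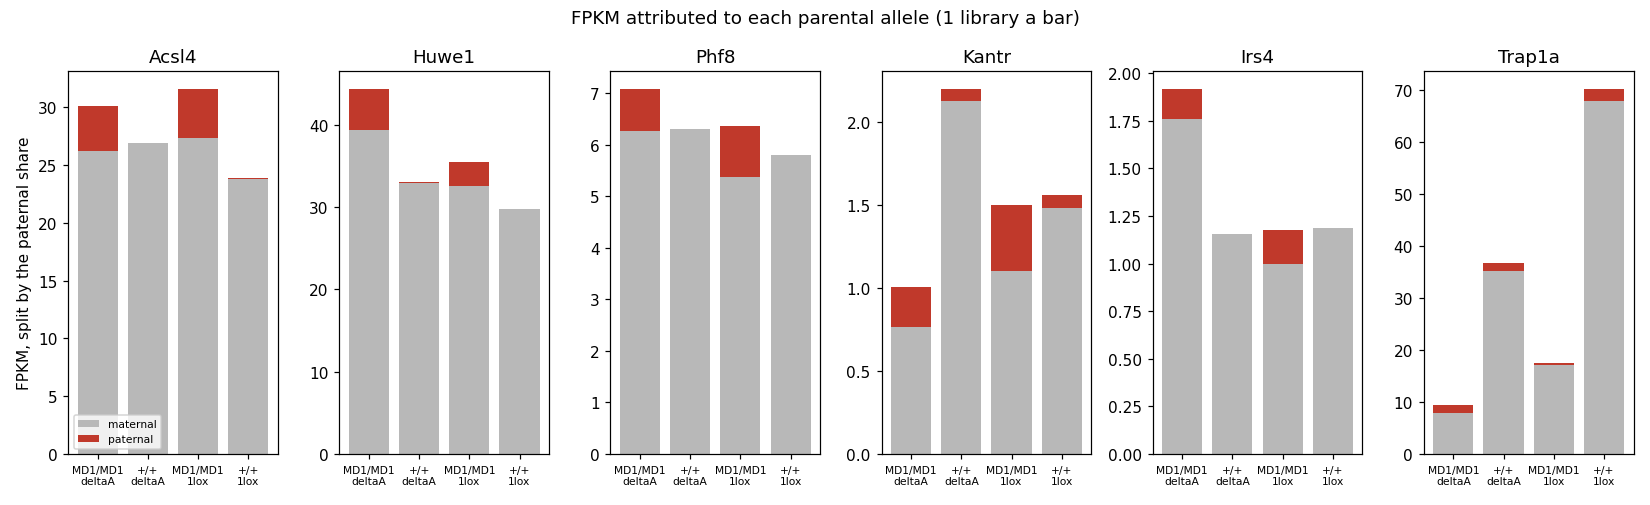
Total FPKM split into a paternal and a maternal part by the allele shares, for Acsl4, Huwe1, Phf8, Kantr, Irs4 and Trap1a (bars from 0, grey maternal, red paternal, 1 library a bar), with the MD1/MD1 library left of the +/+ library in each pair. The paternal part of Acsl4 is 3.90 and 4.19 FPKM in the MD1/MD1 libraries, against 0.0508 and 0.102 FPKM in the +/+ libraries.

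At the read minimum, the genes just inside were Nrk, Col4a6 and C330013F16Rik, with a lowest count of 24, 25 and 30 reads. Just outside were Fam120c, Tbc1d8b and Mageh1, with a lowest count of 19, 17 and 17 reads. Tbc1d8b was 0% paternal in both MD1/MD1 libraries, against 17.6% and 6.45% in the +/+ libraries of the XistdeltaA and Xist1lox pairs. The nearest compared genes beyond the ends were Diap2, at 4.01% and 1.42% in the MD1/MD1 libraries against 0% and 1.25% in the +/+ libraries, and Kctd12b, at 5.30% and 1.62% in the MD1/MD1 libraries against 1.46% and 0.515% in the +/+ libraries.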

How the data were processed

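Per the labels' protocols, total RNA was turned into stranded mRNA libraries. Build mm9, Cuffdiff and Cufflinks 2.2.1 are named in the submitters' processing notes. The sources used here do not give the aligner, variant list or counting strand. Per the file headers, the authors deposited for each gene and library a count of allele-assigned reads, the fraction of them that is paternal, and FPKM. The 6 columns of other samples were left out. Fraction times count gave whole paternal reads within 1e-06. Allele-assigned reads number 7301034 to 8008500 per library, and starts were given here counted from 1.

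Shares were pooled over reads, with Clopper-Pearson intervals at 95% and a limit of 3 counts where none was seen. Fisher's exact test within each pair and Zelen's exact test between pairs (scipy 1.17.1) were adjusted over 341 X-linked genes. Total expression was fitted with limma 3.58.1 (trend, Smchd1 and Xist terms, 1 library per combined genotype, 2 against 2) on log2(FPKM + 1) at a mean of at least 1 FPKM. edgeR 4.0.16 quasi-likelihood on the allele-assigned reads was the alternative, since those reads cover strain variants only. Fits used all genes. The tests were tried on simulated data. In simulated reads, a rise of 5 points in both MD1/MD1 libraries was called in both pairs for 51% of genes. A rise of 15 points was so called for 84%. A rise of 15 points in the XistdeltaA pair alone passed Zelen's test for 10% of genes. Windows on autosomes were taken as maternal-type, library by library, where 90% of at least 5 genes per 10 Mb were under 5% paternal. This step was chosen after seeing the data, as was the CpG ratio of 0.6.

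The genes of the interval, the 7 functional lists and the marker lists were chosen with earlier results of these data known. The genes given in full are those at 10% or more in either MD1/MD1 library, the 8 largest mean rises and 4 largest falls, genes past the test between Xist mutations, the 3 highest and 3 lowest FPKM ratios by the smaller pair, and the 3 genes of highest FPKM and of most reads. Other genes are given for their list or their neighbours.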

Additional observations from a re-analysis of the deposited data

Results flagged for a closer look

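For 3 of the 62 genes the gap in paternal share, MD1/MD1 against +/+ library, differed between both Xist mutations by Zelen's exact test. Of the X-linked genes 4.11% did, with Benjamini-Hochberg adjustment over 341 genes. Genes with no paternal read in either +/+ library, 22 of the 62, could not pass Zelen's test. For Wbp5 the adjusted p was 2.24e-06, with a change of 2.11 points in the XistdeltaA pair and -1.01 points in the Xist1lox pair. For C330013F16Rik the adjusted p was 0.0203, with changes of 0.34 and 43.6 points on 30 to 52 reads per library. The normal test of log odds ratios gave it 0.242. For Amot the adjusted p was 0.0203, with changes of 2.73 and -2.09 points, and 0.0618 by the normal test. Each pair has 1 library per genotype, so the spread between libraries of 1 genotype was not tested.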

How the results depend on the processing

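The rise of the pooled share was positive under every weighting run. It was 3.79 points in the XistdeltaA pair and 3.07 in the Xist1lox pair, 2.61 and 2.12 with equal weight per gene, 1.84 and 0.60 for the median gene, and 3.12 and 2.23 without Acsl4. Genes at 10% or more in the MD1/MD1 libraries (9 and 7, and 5 in both with neither +/+ library) numbered 14, 18 and 8 at 5%, and 2, 2 and 1 at 20%. By the lower bound of the interval 3 remained in the XistdeltaA library and 3 in both. With a difference of at least 5 points, higher calls numbered 12, 11 and 9 (26 in the XistdeltaA pair, 23 in the Xist1lox pair and 19 in both without it), and lower calls in the Xist1lox pair 1. Adjusted over all genes with enough reads, lower calls in that pair numbered 2 instead of 4, without Amot (adjusted p = 0.0586, and 0.0531 with a minimum of 10 reads) and Rragb (adjusted p = 0.0527). Tceal8 in the XistdeltaA pair was lost under both settings (adjusted p = 0.0624 and 0.0533). The normal test of log odds ratios left 1 gene, Wbp5, that differed between Xist mutations, against 3 with Zelen's exact test. The causes were not tested. Of 48 further summary values, 47 did not turn, counts staying within 1.5 times and other values within their interval or the spread of both pairs, and 1 turned (below). A further 156 values of named genes kept their side of the threshold.

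Leaving out each library in turn left 0 genes past limma's threshold each time, with 1 to 8 of 56 at an unadjusted p under 0.05 (1.79% to 14.3%, against 1.10% to 16.7% of all genes), and a median log2 ratio between -0.12 and 0.01. It turned to 0.01 without the +/+ XistdeltaA library. The library left alone in its group was assumed to vary like the others. The fits with a library left out held the Smchd1 genotype as the only term. In the main fit the Xist mutation was a term as well, which pairs the libraries. The labels give no replicate numbers shared between genotypes, so no other pairing was possible. A minimum of 10 and 50 reads gave 70 and 50 genes. With 24 to 60 reads a share of a few percent was not detectable at this depth.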
